A study of Mus musculus with 24 samples.

Results

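The DNA replication genes were a set of 40 mouse genes whose products license, fire and copy replication origins, feed the copying enzymes with deoxynucleotides or pack the new strand into chromatin. They were picked by the gene names printed on the arrays, with a rule that used no measured value but was set when earlier results of these data were known, and older names in the annotation were matched to current symbols (Cdc45l for Cdc45, Orc1l for Orc1, Recc1 for Rfc1 and 4833427B12Rik for Gins2). All 40 genes had a probe, and all 40 passed the filter on dim signal. They stood on 57 of the 41174 gene probes and made up 40 of the 28786 genes on the array, of which 24790 were tested.

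Thymus RNA was compared between wild type mice, p27 knockout mice, stathmin knockout mice and double knockout mice lacking both genes, all C57BL/6 and 15 weeks old, with 6 mice per genotype. p27, encoded by Cdkn1b, is an inhibitor of cyclin-dependent kinases, and stathmin, encoded by Stmn1, is a microtubule-destabilising protein. Each array carried the Cy5-labelled RNA of 1 mouse and, in Cy3, a common pool of fibroblast RNA from all genotypes. Every genotype included 3 females and 3 males, but the sex of each mouse, the construction of the deleted alleles and the cells in which they were deleted are not given in the sources used here. The level of a gene is given throughout as log2 of thymus over reference signal, so that 0 means equal signal and 1 means a thymus signal at 2 times that of the fibroblast pool. The dyes were not swapped, so levels against the pool carry any dye bias, while differences between genotypes compare arrays of the same orientation. Whole thymus was used, and fewer dividing cells and less RNA per dividing cell cannot be told apart.

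Replication starts at origins that are licensed in G1, when the origin recognition complex, Cdc6 and Cdt1 load the ring of Mcm2 to Mcm7 onto DNA. In S phase the kinase Cdc7 with Dbf4, together with cyclin-dependent kinases, triggers the binding of Cdc45 and the GINS complex, which turns the ring into an active helicase, and polymerases tethered by the sliding clamp Pcna then copy both strands. Many of these genes are transcribed under E2F factors, which the retinoblastoma family holds back until cyclin-dependent kinases act, and in the thymus most division takes place among immature thymocytes.

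Promoter sequences are shown because E2F binding letters are the regulatory feature best known for this gene set. Windows of 300 bases, from 250 before to 50 after an annotated start, were taken from RefSeq on build GRCm38.p6 and matched 33 of the 40 genes. Mcm4, Gins1, Gins2, Gins4, Rfc2, Prim2 and Pole had no window in the table used. The letters searched, on both strands, were TTTCCCGC, TTTGGCGC, TTTCGCGC and TTTGCCGC. Of 39 windows of the replication genes, 13 held at least 1 match (33.3%), against 744 of all 32851 windows (2.26%). The pentamer CCAAT, the letters bound by NF-Y, was in 61.5% of the replication gene windows and in 37.4% of all windows, and TTTGAA, the letters of the cell cycle homology region, was in 17.9% of either. The windows below are those of 2 Mcm genes with matches, then of the 4 genes with an adjusted difference between double and p27 knockout described further on, of which only Rfc3 held a match. They are printed 5′ to 3′ along the gene's strand with the matched letters in capitals.
Mcm5: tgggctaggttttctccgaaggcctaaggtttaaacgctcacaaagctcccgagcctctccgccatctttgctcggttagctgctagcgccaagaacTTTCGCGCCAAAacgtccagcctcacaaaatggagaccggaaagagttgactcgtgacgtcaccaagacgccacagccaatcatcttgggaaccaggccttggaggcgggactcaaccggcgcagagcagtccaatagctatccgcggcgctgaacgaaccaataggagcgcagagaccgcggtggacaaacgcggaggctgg
Mcm6: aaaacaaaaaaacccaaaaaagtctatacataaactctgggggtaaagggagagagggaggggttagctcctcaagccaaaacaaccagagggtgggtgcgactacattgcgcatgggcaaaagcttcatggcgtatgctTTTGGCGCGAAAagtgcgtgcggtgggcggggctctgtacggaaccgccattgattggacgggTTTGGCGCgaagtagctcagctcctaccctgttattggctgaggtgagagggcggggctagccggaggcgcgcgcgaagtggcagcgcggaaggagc
Rfc3: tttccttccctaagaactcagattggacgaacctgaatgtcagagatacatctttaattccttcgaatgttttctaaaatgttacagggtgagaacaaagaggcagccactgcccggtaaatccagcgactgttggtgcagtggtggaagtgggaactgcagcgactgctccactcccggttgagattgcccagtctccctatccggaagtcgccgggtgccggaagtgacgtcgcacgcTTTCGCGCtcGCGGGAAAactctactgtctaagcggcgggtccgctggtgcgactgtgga
Cdc45: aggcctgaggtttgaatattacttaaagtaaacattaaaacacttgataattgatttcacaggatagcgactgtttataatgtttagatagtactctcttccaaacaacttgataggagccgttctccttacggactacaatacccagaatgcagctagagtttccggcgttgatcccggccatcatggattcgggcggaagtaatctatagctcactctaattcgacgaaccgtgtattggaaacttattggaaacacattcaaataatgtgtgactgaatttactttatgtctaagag
Pcna: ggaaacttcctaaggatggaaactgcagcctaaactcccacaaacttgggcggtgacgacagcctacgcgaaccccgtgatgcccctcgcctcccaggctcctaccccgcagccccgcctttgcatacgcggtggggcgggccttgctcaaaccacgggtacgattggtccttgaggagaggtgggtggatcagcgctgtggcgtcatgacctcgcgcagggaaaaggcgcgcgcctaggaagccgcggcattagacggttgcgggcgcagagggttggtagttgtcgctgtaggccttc
Fen1: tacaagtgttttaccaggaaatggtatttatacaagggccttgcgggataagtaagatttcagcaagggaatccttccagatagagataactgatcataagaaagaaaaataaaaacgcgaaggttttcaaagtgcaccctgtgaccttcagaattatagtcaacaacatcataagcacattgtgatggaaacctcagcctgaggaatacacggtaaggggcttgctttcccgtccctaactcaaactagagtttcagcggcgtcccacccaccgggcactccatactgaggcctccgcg
The windows lie in this order: Mcm5 at chr8:75109259-75109558 on the plus strand, Mcm6 at chr1:128359656-128359955 on the minus strand, Rfc3 at chr5:151651159-151651458 on the minus strand, Cdc45 at chr16:18811923-18812222 on the minus strand, Pcna at chr2:132253131-132253430 on the minus strand and Fen1 at chr19:10204344-10204643 on the minus strand, the first of 2 windows of Fen1. Counting the start as 1 with no base 0, the matches of Mcm6 begin at -110, -106 and -47, where the first 2 overlap. The Mcm5 matches begin at -153 and -149 and also overlap. In Rfc3 the matches begin at -10 and 1, on either side of the start. A match is only a run of letters, and its absence from a window of this length says nothing of the factor. The 13 genes with a match (Orc1, Cdc6, Cdt1, Mcm3, Mcm5, Mcm6, Mcm7, Gins3, Rfc3, Pola1, Pold1, Lig1 and Uhrf1) had a median wild type level of 1.40 on the log2 scale, and the 20 with a window but no match had a median of 1.38.

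The arrays differed in quality, and 2 of the p27 knockout mice touched every result on that genotype. The array of p27 knockout replicate 6 correlated with the other 23 at a mean r of 0.212 over the 24790 genes tested. That of replicate 5 did so at 0.591, and the remaining arrays at 0.78 to 0.866. The 99th percentile of Cy5 signal was 19.4 kilo-units of scanner intensity in replicate 6 and 50.7 in replicate 5, against 56.3 to 340 elsewhere. In Cy3, the reference channel, it was 217 in both, against 118 to 197 elsewhere. The median over 16 genes of double-positive thymocytes was 0.15 in replicate 6 and 4.23 to 6.31 on the other 23 arrays, while the median over 14 fibroblast genes was -1.16 there and -4.36 to -2.15 elsewhere. The defining markers of thymus were therefore near the fibroblast pool in the library labelled p27 knockout replicate 6, and results on p27 knockout are given with and without it or without both mice. A Cdkn1b probe (A_51_P146126) stood at 1.80 ± 0.35 (SD, n = 5, 1 spot left out) in wild type and 0.30 ± 0.57 (SD, n = 6) in p27 knockout, and a Stmn1 probe (A_52_P319161) ran from 2.69 to 3.34 in wild type and stood at -2.95 ± 0.75 (SD, n = 6) in stathmin knockout. In double knockout the 2 probes stood at -0.50 ± 0.88 (SD, n = 5) and -3.19 ± 0.36 (SD, n = 6). The other probes of both genes moved less. The second Stmn1 probe (A_51_P495641) was at 3.54 in wild type, 2.01 in stathmin knockout and 1.88 in double knockout. The second Cdkn1b probe (A_51_P169173) was at 0.28 in wild type, -0.78 in p27 knockout and -0.65 in double knockout, and another (A_52_P673863) was at -0.50, -0.99 and -0.61. The second Cdkn1b probe was not well above background on any of the 6 double knockout arrays.

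Replication genes were above the fibroblast pool in wild type thymus. Their median level was 1.28 on the log2 scale against 0.09 for all genes tested, and 38 of 40 had a mean above 0 against 55.1% of all genes. In 34 genes all 6 wild type arrays were above 0, and in 1 gene, Gins2, all 6 were below. A wider list of 46 other genes of replication and its checkpoints had a median of 0.87, with 39 above 0, and 24 genes of G2 phase and mitosis had a median of 1.13, with 22 above 0. These levels are ratios to each gene's own signal in a proliferating cell type, so their order is not an order of RNA amounts.

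**Figure D1:**
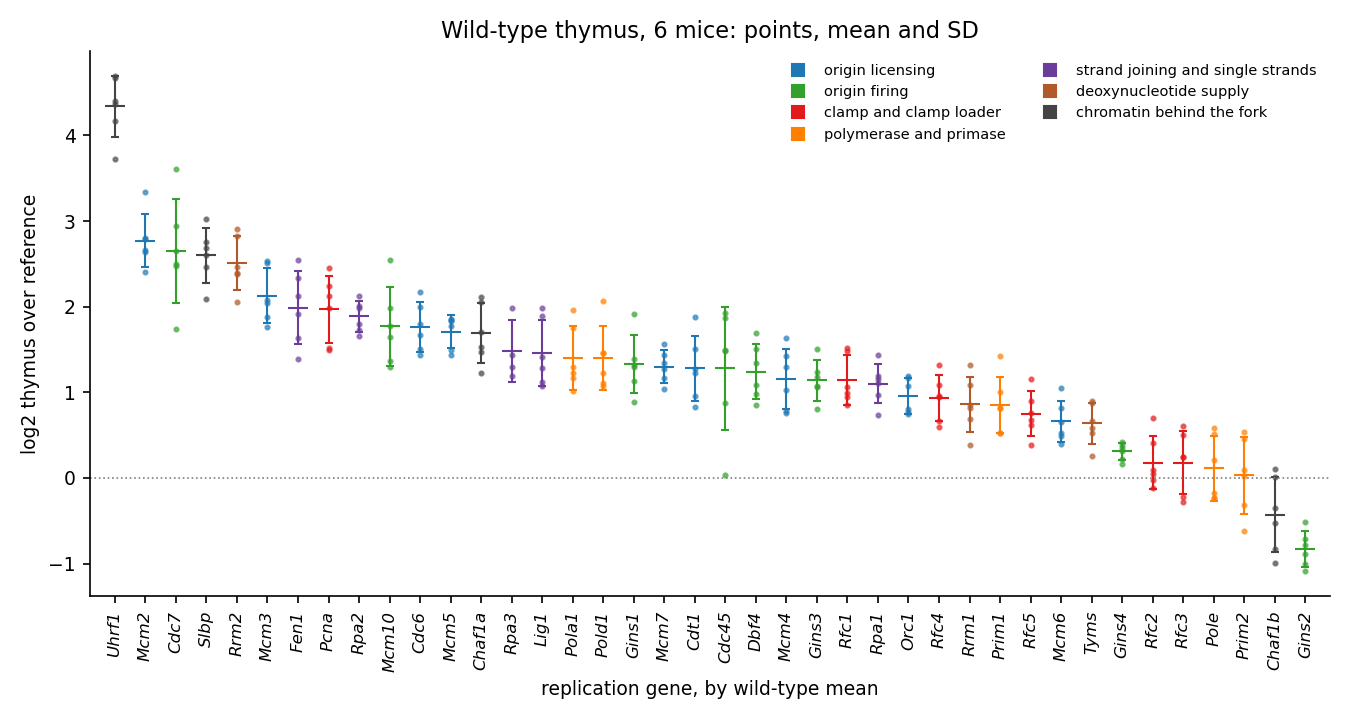
Wild type level of the 40 replication genes as log2 thymus over fibroblast reference, ordered by mean, with points for 6 mice, a dash for the mean and bars for 1 SD, coloured by role. Uhrf1 stands alone at 4.34, Mcm2 to Tyms lie between 2.77 and 0.64, and only Chaf1b and Gins2 have means below 0.

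Among the licensing genes, Mcm2 had the highest ratio at 2.77 ± 0.31 (SD, n = 6), followed by Mcm3 at 2.13, Cdc6 at 1.76, Mcm5 at 1.71, Mcm7 at 1.30, Cdt1 at 1.28, Mcm4 at 1.15, Orc1 at 0.96 and Mcm6 at 0.66. The 6 Mcm proteins form 1 ring in equal numbers, yet their ratios to the pool spanned 0.66 to 2.77. Among the firing genes, the kinase Cdc7 stood at 2.65 ± 0.61 and its activator Dbf4 at 1.24, the helicase scaffold Mcm10 at 1.77 and Cdc45 at 1.28 ± 0.72, the widest SD of the 40. The 4 GINS subunits, which also act as 1 complex, ran from 1.33 for Gins1 and 1.14 for Gins3 to 0.31 for Gins4 and -0.83 ± 0.21 for Gins2. The array thus read subunits of the same complex at different ratios to the pool.

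Of the clamp and its loader, Pcna stood at 1.97 ± 0.39, Rfc1 at 1.14, Rfc4 at 0.93, Rfc5 at 0.75, and Rfc2 and Rfc3 at 0.18 each. The polymerase subunits Pola1 and Pold1 were at 1.40 each, the primase subunits Prim1 and Prim2 at 0.85 and 0.03, and the leading-strand polymerase Pole at 0.11. Fen1, the nuclease that trims Okazaki fragments, stood at 1.99, and Lig1, the ligase that seals them, at 1.46. The single-strand binding proteins were at 1.10 for Rpa1, 1.89 for Rpa2 and 1.48 for Rpa3, the last over 4 mice. The ribonucleotide reductase subunit Rrm2 stood at 2.51, its partner Rrm1 at 0.86 and thymidylate synthase, Tyms, at 0.64. Behind the fork, Uhrf1, which carries DNA methylation over to the new strand, had the highest ratio of all at 4.34 ± 0.36, a 20.3-fold signal over the pool and above 99.1% of all genes. Slbp, which binds histone mRNA, followed at 2.60, and the histone chaperone subunits Chaf1a and Chaf1b stood at 1.69 and -0.43. The lowest Uhrf1 value in wild type, 3.72, was above the highest Mcm2 value, 3.34. The next gaps in the order were 0.46 between Prim2 and Chaf1b, 0.40 between Chaf1b and Gins2, 0.38 between Rrm2 and Mcm3 and 0.33 between Tyms and Gins4, and all other neighbours lay 0.21 or less apart. Of these pairs only Uhrf1 and Mcm2 had ranges that did not overlap. The gaps below Rrm2, Tyms and Prim2 were larger than the SD of either neighbour, as was the one below Uhrf1, and the remaining gaps were within the larger SD of their pair.

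Across the 24 mice the set sat at nearly the same height on all arrays except that of p27 knockout replicate 6. The median of the 40 genes was 1.06 to 1.46 in wild type (median of the 6 arrays 1.21), 1.02 to 1.54 in stathmin knockout (1.22) and 0.96 to 1.55 in double knockout (1.22). In p27 knockout it was 1.35, 1.59, 1.45, 1.64 and 1.31 in replicates 1 to 5 and -0.58 in replicate 6. The number of genes above 0 was 34 to 39 on 23 arrays and 10 on that of replicate 6, where 35 of the 40 genes had the lowest value of their genotype.

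**Figure D2:**
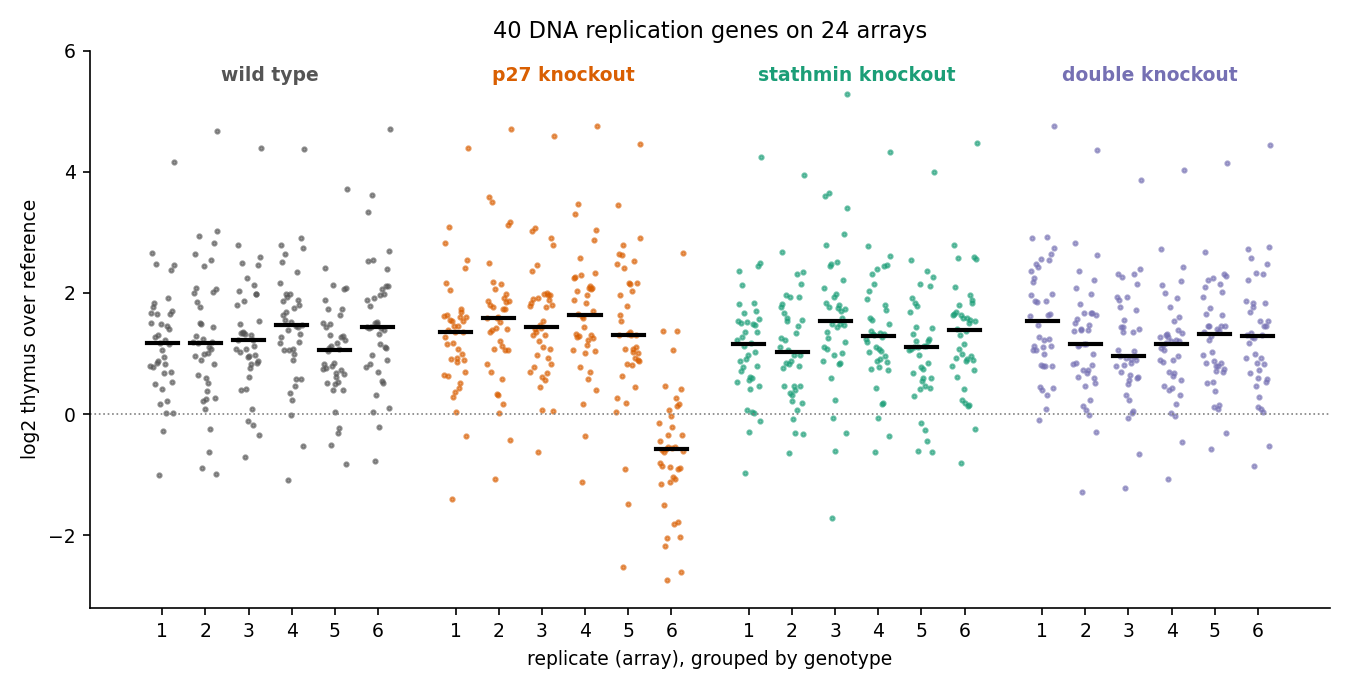
Level of each of the 40 replication genes (points, log2 thymus over reference) on each of 24 arrays grouped by genotype, with a black bar at the array's median. The bars lie between 0.96 and 1.64 on 23 arrays and at -0.58 in p27 knockout replicate 6.

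Within a genotype the genes did not all move together. In stathmin knockout replicate 3, 26 of the 40 genes had the highest value of the 6 mice, Mcm2 at 3.60 and Cdc7 at 3.65 among them, while Cdc6, Cdc45, Gins2, Gins4, Pcna, Rfc3, Fen1 and Rpa2 had the lowest. In wild type replicate 6, 20 genes were highest and Cdc6, Cdc45 and Fen1 lowest. Replicate 5 of p27 knockout showed the same opposition, with 15 genes highest, among them Mcm3, Mcm10 and Lig1, while Cdc45 stood at -2.52, Pcna at 0.82, Fen1 at 1.03 and Rfc3 at -1.48. In double knockout replicate 1, by contrast, 27 genes were highest, Cdc45, Pcna, Rfc3 and Fen1 included, and only Dbf4 was lowest. The mice that stood out in this way were picked out after their values were seen.

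The height of the set also moved with the Cy5 brightness of the array inside genotypes, but not in 1 direction. In wild type the dimmest Cy5 signals, 56.3 and 110 kilo-units in replicates 4 and 6, came with the highest medians of the 40 genes, 1.46 and 1.44, and in stathmin knockout the dimmest, 131 in replicate 3, came with the highest, 1.54. In double knockout the brightest, 320 in replicate 1, came with the highest, 1.55. In p27 knockout, too, the brightest arrays had the highest medians, 1.64 at 171 kilo-units in replicate 4 and 1.59 at 121 in replicate 2, and the dimmest, replicate 6, the lowest. Replicates 1 to 4 of p27 knockout had 75.3 to 171 kilo-units, and all 6 double knockout arrays had 200 to 320. In Cy3 the order was the reverse, with 163 to 217 in p27 knockout and 118 to 158 in double knockout. Brightness therefore differed between those genotypes, and a brightness term cannot tell its effect apart from that of genotype. With brightness as a term the median difference of the 40 genes went from -0.02 to -0.13 for stathmin knockout against wild type, from -0.02 to -0.20 (7 above 0) for double knockout against wild type and from -0.01 to -0.04 for double against stathmin knockout. Those of the other comparisons are given with them.

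**Figure D3:**
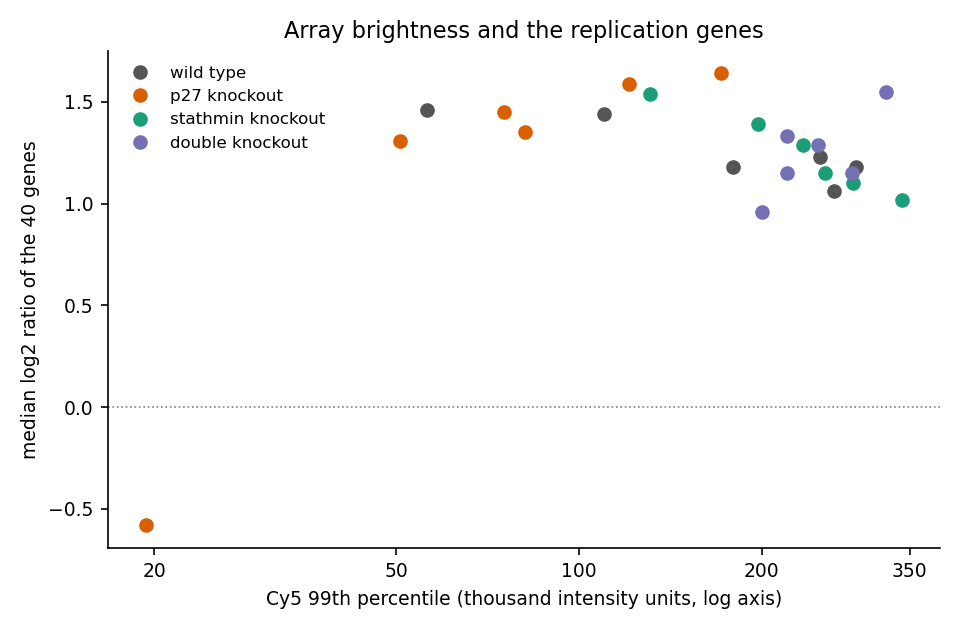
Median log2 level of the 40 replication genes on each array against the 99th percentile of its Cy5 signal in kilo-units of intensity (log axis), coloured by genotype. Replicate 6 of p27 knockout lies at 19.4 kilo-units and -0.58, and the p27 knockout arrays lie to the left of all double knockout arrays.

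Whether loss of p27 alone changed replication genes was asked against wild type. None of the 40 passed an adjusted p of 0.05 in limma, where 0.00807% of all genes did (2 genes), and at an unadjusted p under 0.05 there were 6 of 40, 3 higher and 3 lower, against 28.9% of all genes (20.7% higher, 8.18% lower). The groups overlapped in all 40 genes, against 0.629% of all genes that did not overlap. The median difference, p27 knockout minus wild type, was -0.12 over the 40 genes with 13 above 0, and 0.14 over all genes. Without replicates 5 and 6 it was 0.27 with 30 above 0, and without replicate 6 alone 0.26 with 30 above 0, so 1 array turned its direction. Slide by slide, where each slide held 1 mouse of each genotype, the medians were 0.49, 0.24, -1.92, -0.17, 0.59 and -0.05, and the third was the slide of replicate 6.

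Pcna, the sliding clamp, was the replication gene with the lowest p in this comparison. Its values in wild type ran from 1.49 over a median of 2.06 to 2.45. In p27 knockout they were 1.46, 1.59, 1.47, 1.58, 0.82 and -0.88 in replicates 1 to 6, a median of 1.47. The difference was -0.96 ± 0.34 (SE; limma adjusted p = 0.0895; lower on 5 of 6 slides), and -0.44 without replicates 5 and 6 (adjusted p = 0.402). Cdc45, the helicase subunit, ran from 0.03 over 1.49 to 1.93 in wild type. In p27 knockout it stood at 0.91, 1.08, 0.98 and 0.78 in replicates 1 to 4, and at -2.52 and -2.74 in replicates 5 and 6. Its difference was -1.53 ± 0.57 (SE; limma adjusted p = 0.0970), and -0.34 without those 2 mice (adjusted p = 0.594). The 4 remaining mice lay inside the wild type range of Cdc45. For Pcna, replicates 2 and 4 lay inside it and replicates 1 and 3 just below its lower end.

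The Mcm ring followed replicate 6 in 5 of its 6 subunits. Mcm2 stood at 2.82 to 3.58 in p27 knockout replicates 1 to 5 and at -1.16 in replicate 6, against 2.41 to 3.34 (median 2.72) in wild type. Mcm3 was at 2.17 to 2.65 and then -0.59, against 1.76 to 2.53 (2.06). Mcm4 was at 1.16 to 1.35 and then -0.86, against 0.76 to 1.63 (1.16). In each of these the value of replicate 6 was the only one below the wild type range. Mcm6 was at 0.63 to 1.63 and then -1.51, against 0.40 to 1.05 (0.59) in wild type, and Mcm7 at 1.39 to 1.66 and then -0.63, against 1.04 to 1.56 (1.31). Mcm5 was the exception, at 1.63 to 2.04 in replicates 1 to 5 and 1.38 in replicate 6, against 1.43 to 1.86 (1.81) in wild type. Its difference was 0.08 ± 0.17 (SE; limma adjusted p = 0.779), the smallest error among the 6, and that of Mcm2 was -0.27 ± 0.52 (0.747), or 0.41 without replicates 5 and 6 (0.385). Mcm3, Mcm4, Mcm6 and Mcm7 differed by -0.24 ± 0.37, -0.22 ± 0.30, -0.08 ± 0.33 and -0.18 ± 0.27 (SE; limma adjusted p = 0.624 to 0.893). Without both mice these were 0.19, 0.13, 0.18 and 0.16 (0.602 to 0.755). A second, dimmer Mcm3 probe above the filter had means of 1.06 in p27 knockout and 2.01 in wild type on all arrays. Its difference was -0.95 (limma adjusted p over all probes = 0.107).

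A fit that weights arrays by their own scatter, giving replicates 5 and 6 weights of 0.158 and 0.0507, called 6 replication genes higher in p27 knockout than in wild type and none lower, where 10.1% of all genes were higher, 2.33% lower and 12.4% either. They were Mcm10 at 0.65, Gins1 at 0.68, Rfc5 at 0.42, Pola1 at 0.63, Prim2 at 0.61 and Lig1 at 0.54 (limma adjusted p = 0.0293 to 0.0464). The probes of Gins1 disagreed in the equal-weight fit on all arrays. There the probe used differed by 0.04 and a second one (A_51_P337083) by -1.13 (limma adjusted p over all probes = 0.964 and 0.0926). In the equal-weight fit without replicates 5 and 6 none of the 40 passed, where 0.0161% of all genes did, and at an unadjusted p under 0.05 there were 7, all higher, against 10.2% of all genes higher and 13.3% in either direction. With brightness as a further term in that fit the median of the 40 was 0.17, with 32 above 0, and again none passed. With brightness as a term on all 24 arrays it was 0.22, against -0.12 without the term.

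**Figure D4:**
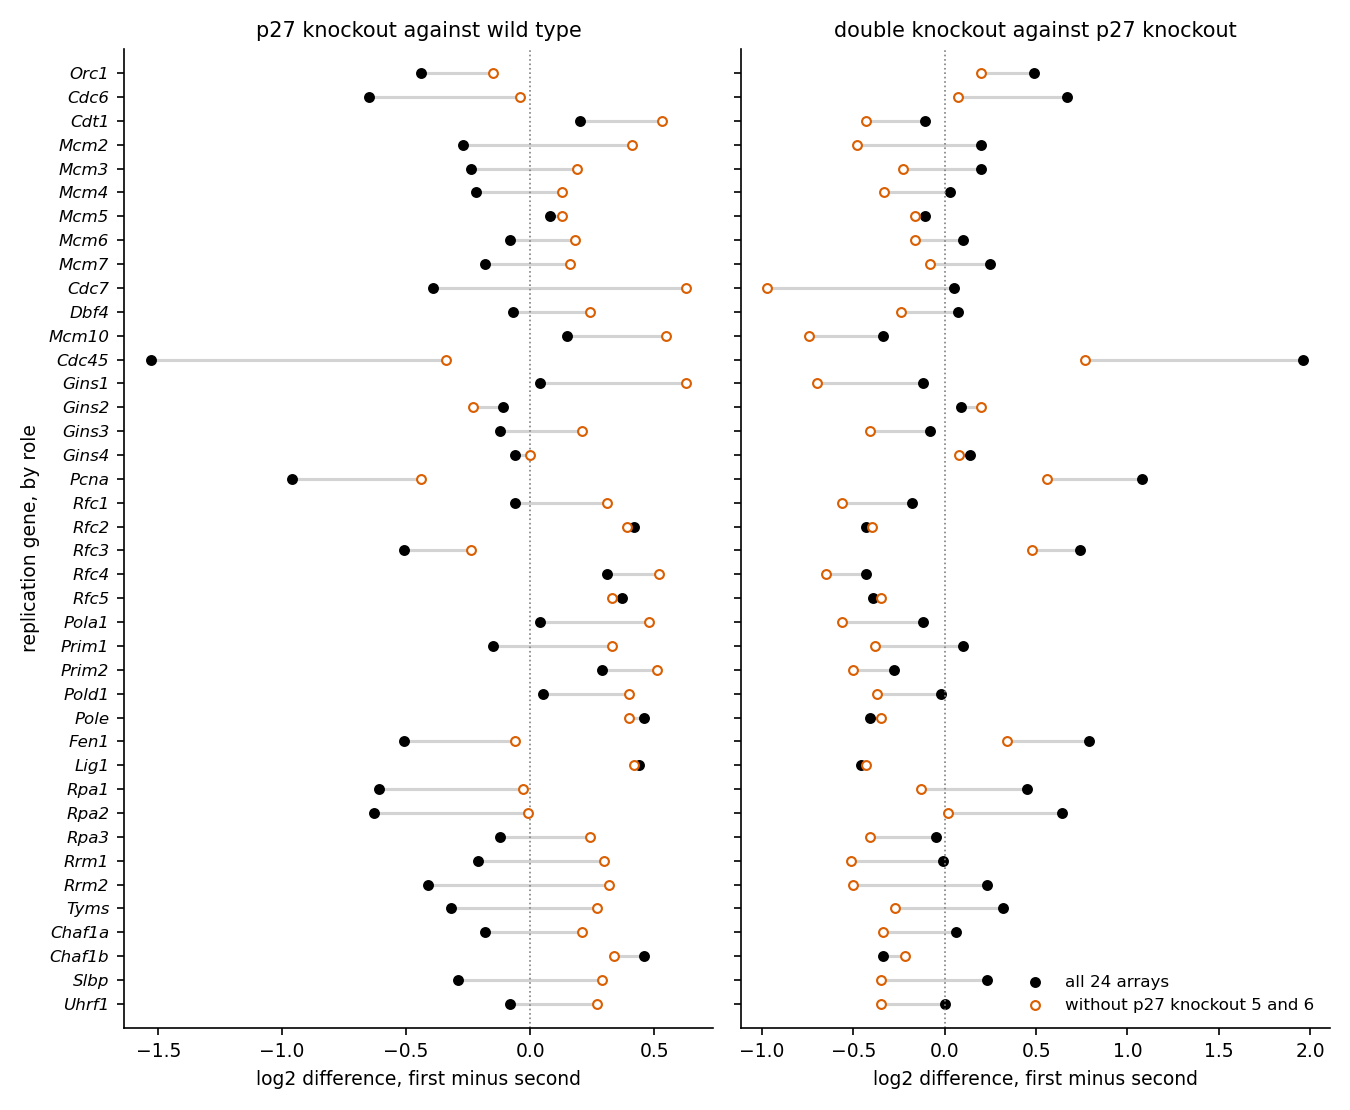
Difference of each of the 40 replication genes on the log2 scale in p27 knockout against wild type (left) and double knockout against p27 knockout (right), fitted on all 24 arrays (black) and without p27 knockout replicates 5 and 6 (open orange). On the left the median moves from -0.12 to 0.27 and on the right from 0.05 to -0.35.

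Loss of stathmin alone left no replication gene past the threshold, in a fit whose estimate of spread included the p27 knockout arrays. None of the 40 passed the adjusted p of 0.05 in limma, where 0% of all genes did, and none had an unadjusted p under 0.05, against 2.75% of all genes. The ranges overlapped in all 40 genes, where 0.19% of all genes did not overlap. All 40 differences from wild type lay between -0.24 and 0.19, with a median of -0.02 for the set, 17 above 0, and -0.02 for all genes. Those of Mcm5 (-0.19), Rpa1 (-0.17) and Chaf1a (-0.14) were larger than the SD within stathmin knockout (0.15, 0.09 and 0.11). They were not larger than the SD within wild type (0.19, 0.23 and 0.35). The lowest p belonged to Mcm5, which ran from 1.33 over 1.54 to 1.68 in stathmin knockout, lower than wild type on 6 of 6 slides by 0.10 to 0.34 while the ranges overlapped. Its difference was -0.19 (95% interval -0.53 to 0.15; limma adjusted p = 1). Cdc6, the loader of the Mcm ring, had the next lowest p and ran from 1.10 over 1.66 to 1.90 against 1.44 over 1.73 to 2.17 in wild type, a difference of -0.21 (-0.87 to 0.44; adjusted p = 1). Pcna differed by -0.21 (-0.91 to 0.49) and Cdc45 by 0.14 (-1.03 to 1.32), intervals that still hold changes of about 2-fold for Cdc45.

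Loss of both genes likewise left no replication gene past the threshold against wild type, where 0.0121% of all genes passed, and none had an unadjusted p under 0.05, against 4.73% of all genes. The ranges overlapped in all 40 genes, where 1.02% of all genes did not overlap. The 40 differences lay between -0.34 and 0.42, with a median of -0.02, 16 above 0, and -0.04 for all genes. Fen1 had the lowest p and ran from 1.92 over 2.23 to 2.92 in double knockout against 1.39 over 2.02 to 2.55 in wild type, a difference of 0.27 (95% interval -0.33 to 0.87; limma adjusted p = 1). Rfc3, a clamp loader subunit, ran from 0.07 over 0.41 to 0.79 against -0.28 over 0.25 to 0.61, a difference of 0.24 (-0.30 to 0.78; adjusted p = 1). In both genes the ranges overlapped and the highest double knockout value lay above the highest of wild type. The differences of the 6 Mcm genes from wild type lay between -0.20 for Mcm4 and 0.08 for Mcm7 in double knockout and between -0.19 for Mcm5 and 0.02 for Mcm2 in stathmin knockout (SE 0.17 to 0.52; limma adjusted p = 1 each). Mcm2 ran from 2.32 over 2.73 to 2.90 in double knockout and from 2.37 over 2.72 to 3.60 in stathmin knockout, and Mcm7 from 1.05 over 1.39 to 1.86 and from 1.10 over 1.27 to 1.41. In simulated data of this comparison 38% of changes of 1 and 88% of changes of 2 on the log2 scale were called. Each gene was simulated with 1 spread averaged over the 4 genotypes, p27 knockout included, and the changed genes were drawn at random from 24032. These are therefore not rates for the replication genes. A missing call does not show that a gene did not change.

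Double knockout against stathmin knockout, which asks what loss of p27 adds where stathmin is already gone, gave 0 of 40 past the threshold, where 0.00807% of all genes passed, and 0 at an unadjusted p under 0.05, against 1.28% of all genes. The differences lay between -0.25 and 0.33 with a median of -0.01, 19 above 0. Gins4 had the lowest p, running from 0.14 over 0.42 to 0.53 in double knockout and from -0.06 over 0.29 to 0.43 in stathmin knockout, a difference of 0.14 (95% interval -0.12 to 0.41; limma adjusted p = 1). Rfc3 differed by 0.26 (-0.28 to 0.80; adjusted p = 1), with its stathmin knockout values spread from -0.61 to 0.78. The ranges overlapped in all 40 genes, and 0.121% of all genes did not overlap.

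Double knockout against p27 knockout, which asks what loss of stathmin adds where p27 is already gone, was the comparison in which replication genes passed. Cdc45, Pcna, Rfc3 and Fen1 were higher in double knockout, 4 of 40 (10%), and none was lower. Among all genes 28.8% passed, 9.69% higher and 19.1% lower, so the share of replication genes called higher was near the background. At an unadjusted p under 0.05 there were 8 of 40, 6 higher and 2 lower, against 42.6% of all genes (14.8% higher, 27.8% lower). The groups did not overlap in 3 genes, Cdc45, Pcna and Rfc3, against 11.9% of all genes.

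Cdc45 stood at 1.33 to 2.43 (median 1.65) in double knockout, above all 6 p27 knockout values given before. The difference was 1.96 ± 0.57 (SE; limma adjusted p = 0.0162; higher on 6 of 6 slides, by 0.43 to 4.30), 3.89-fold. Without replicate 6 it was 1.46 (adjusted p = 0.0332), and without replicates 5 and 6 it was 0.77 ± 0.32 (0.0953). Pcna stood at 1.67 to 2.56 (median 2.09) in double knockout, again above all p27 knockout values, a difference of 1.08 ± 0.34 (SE; limma adjusted p = 0.0231; 6 of 6 slides). It was 0.70 without replicate 6 (0.0363) and 0.56 ± 0.24 without both (0.111). The direction of both genes held in every pair of mice on a slide, while the sizes differed. The slide of replicate 6 gave 4.30 for Cdc45 and 2.82 for Pcna, that of replicate 5 gave 3.92 and 0.85, and the other 4 gave 0.43 to 1.65 and 0.31 to 0.97.

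Rfc3 ran from -1.48 over -0.10 to 0.07 in p27 knockout, and its lowest double knockout value, 0.07 when rounded, lay just above the highest of these. The difference was 0.74 ± 0.26 (SE; limma adjusted p = 0.0378; 6 of 6 slides), 0.76 without replicate 6 (0.0423) and 0.48 without both (0.153). Fen1 ran from 0.13 over 1.80 to 2.12 in p27 knockout and overlapped with double knockout, with a difference of 0.79 ± 0.29 (SE; limma adjusted p = 0.0455; 6 of 6 slides), 0.52 without replicate 6 (0.104) and 0.34 without both (0.302). None of the 4 passed without both mice, and with brightness as a term on all 24 arrays the differences were 0.43 for Cdc45, 0.03 for Pcna, 0.40 for Rfc3 and 0.01 for Fen1 (adjusted p = 0.682 to 0.994), with 0 of all genes passing.

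**Figure D5:**
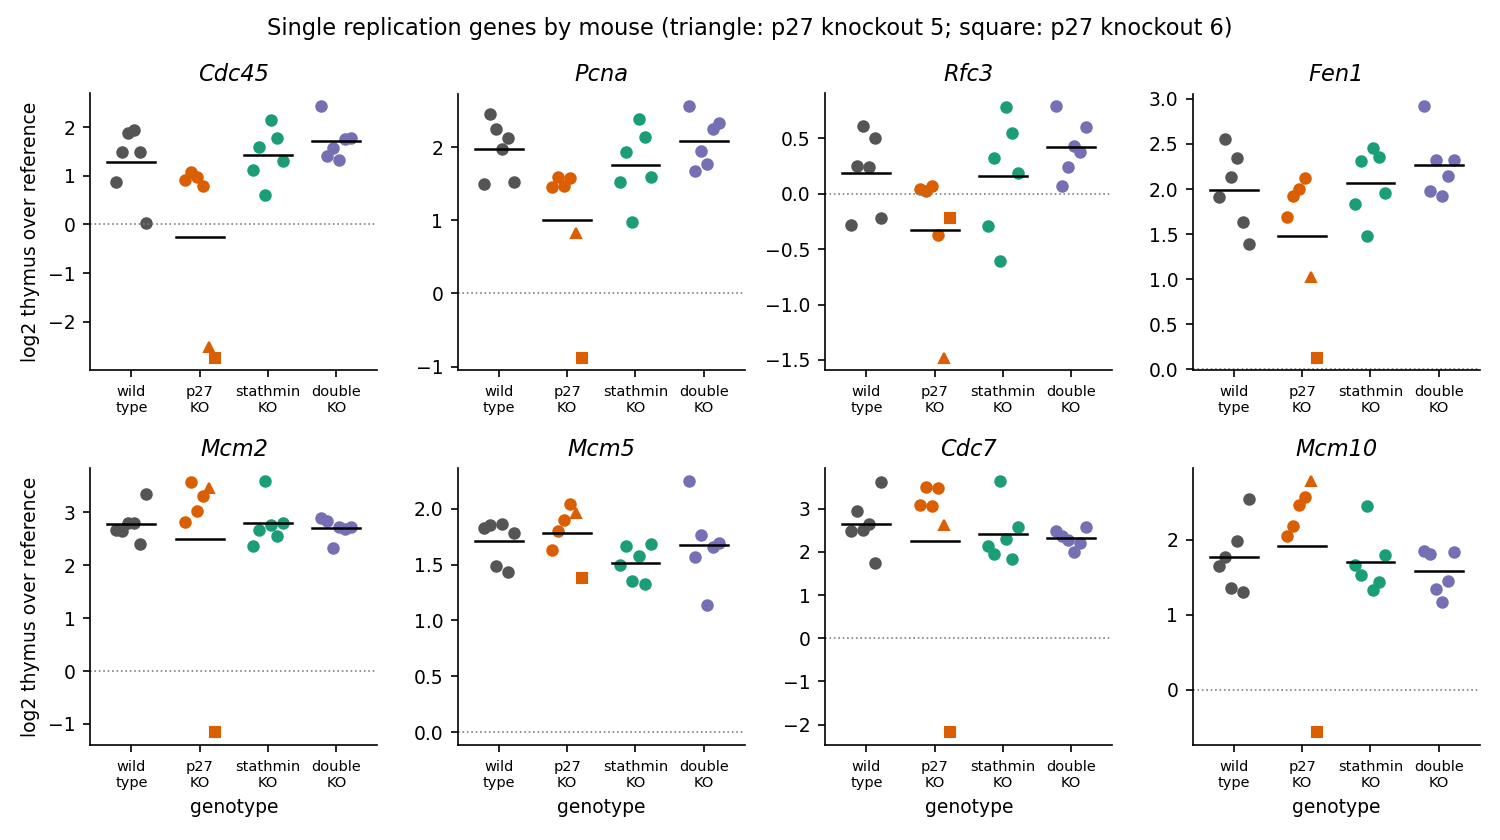
Level of 8 replication genes in each mouse (log2 thymus over reference), by genotype, with a line at the mean, a triangle for p27 knockout replicate 5 and a square for replicate 6. In Cdc45 both marks lie at or below -2.52, in Mcm2, Cdc7 and Mcm10 only the square lies low, and in Mcm5 neither stands apart.

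The median of the set changed its sign when those mice were set aside. The median difference, double minus p27 knockout, was 0.05 with 23 of 40 above 0 on all arrays, -0.34 with 9 above 0 without replicate 6, and -0.35 with 9 above 0 without replicates 5 and 6, while the median of all genes was -0.16 and -0.13 on all arrays and without both. Of the 9 above 0 without both mice, 4 were Cdc45, Pcna, Rfc3 and Fen1, and the others were Orc1, Cdc6, Gins2, Gins4 and Rpa2. By slide the medians were -0.22, -0.41, 1.88, -0.21, -0.35 and -0.25, the third with replicate 6. The Mcm genes differed by -0.11 for Mcm5 to 0.25 for Mcm7 on all arrays and by -0.48 for Mcm2 to -0.08 for Mcm7 without both mice, and none passed in either fit (limma adjusted p = 0.485 to 0.950 and 0.115 to 0.722). Without both mice 2 of 40 passed (5%), both lower in double knockout, where 14.4% of all genes passed, 10.4% lower and 3.99% higher. They were Cdc7 at -0.97 ± 0.31 (SE; limma adjusted p = 0.0406) and Mcm10 at -0.74 ± 0.24 (0.0413). Cdc7 had stood at 3.09, 3.50, 3.07 and 3.47 in p27 knockout replicates 1 to 4, 2.63 in replicate 5 and -2.18 in replicate 6, against 2.00 to 2.57 in double knockout. Mcm10 stood at 2.05 to 2.79 in replicates 1 to 5 and -0.57 in replicate 6, against 1.17 to 1.85. At an unadjusted p under 0.05, 13 of 40 (32.5%) were lower in that fit, against 24.1% of all genes, and 2 were higher, Cdc45 and Pcna, against 11.1% (35.2% of all genes in either direction). The 2 dimmer Cdc7 probes above the filter went the other way without both mice, at 0.22 and 0.69 (limma adjusted p over all probes = 0.597 and 0.127). Cdc7 and Mcm10 were singled out after their values were seen.

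Leaving out replicate 6 alone gave 12 calls (27.7% of all genes), 3 higher (8.4% of all genes) and 9 lower (19.3% of all genes). The 9 were Cdc7, Mcm10, Gins1, Rfc1, Rfc2, Rfc4, Prim2, Lig1 and Rrm1, with differences from -0.84 for Cdc7 to -0.54 for Rrm1. They come from 5 of the 7 roles, none from licensing or chromatin, and the clamp loader split, with Rfc3 higher and Rfc1, Rfc2 and Rfc4 lower. The licensing genes Mcm2 and Cdt1 fell just short, at -0.54 and -0.56 (limma adjusted p over all probes = 0.0514 and 0.0699). Of the 9 licensing genes 2 were above 0. A lack of calls in a role is thus not a difference between roles. The other probes of Cdc7 were at 0.83 and 0.62, that of Gins1 at 0.71 and that of Rfc2 at -0.18. None of these other probes passed (limma adjusted p over all probes = 0.117 to 0.434). With array weights 17 passed (33.8% of all genes), Cdc45, Pcna and Rfc3 higher (11% of all genes) and 14 lower (22.8% of all genes). With brightness as a term on all 24 arrays the median of the 40 was -0.37 with 7 above 0. With brightness as a term and without both mice 0 of 40 passed, where 0.00403% of all genes did, and the median of the 40 was -0.13 beside -0.08 for all genes.

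By role, on all arrays, the differences between double and p27 knockout had medians of 0.20 over the 9 licensing genes, 0.06 over the 8 firing genes, -0.29 over the 6 clamp and loader genes, -0.12 over the 5 polymerase and primase genes and 0.45 over the 5 genes of strand joining and single strands. Those of the 3 deoxynucleotide genes and the 4 chromatin genes were 0.23 and 0.03. Without replicates 5 and 6 all 7 medians were below 0, from -0.50 for the deoxynucleotide genes, where 0 of 3 were above 0, to -0.13 for strand joining. Rrm1, Rrm2 and Tyms differed by -0.51, -0.50 and -0.27 in that fit (adjusted p = 0.0748 to 0.249), and none of the 5 polymerase and primase genes and none of the 4 chromatin genes was above 0.

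The interaction, which tests whether loss of p27 acts differently with and without stathmin, called none of the 40 genes, where 0% of all genes passed in limma. At an unadjusted p under 0.05 there were 3 of 40, all above 0, against 17.8% of all genes (5.41% above 0). Pcna had an interaction of 1.29 ± 0.48 (SE; limma adjusted p = 0.264) and Cdc45 one of 1.82 ± 0.80 (0.266), and without replicates 5 and 6 they were 0.77 (0.485) and 0.63 (0.522). The median over the 40 was 0.11 with 25 above 0 on all arrays and -0.34 with 11 above 0 without replicates 5 and 6. The median of all genes was -0.16 (40.1% above 0) and -0.14 in these fits. With brightness as a term on all arrays the median of the 40 was -0.31 with 9 above 0, beside -0.11 for all genes.

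The wider list of 46 replication and checkpoint genes gave calls in 1 of the 6 comparisons: 4 rose and 1 fell in double knockout against p27 knockout, where 9.69% of all genes rose and 19.1% fell, and 0 of 46 passed in the other 5. Chtf8, a subunit of an alternative clamp loader, stood at 2.19 in double and 0.37 in p27 knockout, a difference of 1.81 ± 0.48 (SE; limma adjusted p = 0.0104; 6 of 6 slides), or 0.92 without replicates 5 and 6 (0.0297). Ccne1, the S phase cyclin E1, was lower by 0.70 on the log2 scale in double knockout (difference -0.70 ± 0.19, adjusted p = 0.0137; 6 of 6 slides), or -0.44 without both mice (0.0833). The others were Mcmbp, which binds the Mcm ring, at 1.27 (0.0164), Pola2, a polymerase alpha subunit, at 1.86 (0.0257; 5 of 6 slides), and Ticrr, which acts in origin firing, at 1.10 (0.0459; 5 of 6 slides). Without both mice these were 0.50, 0.65 and 0.31 (0.0873, 0.197 and 0.283), so that of the 5 calls only that of Chtf8 was kept. Without replicate 6 alone Pola2 (1.26; 0.0532) and Ticrr (0.60; 0.0778) lost theirs. Against wild type, Chtf8 in p27 knockout differed by -1.68 and Ccne1 by 0.68 (adjusted p = 0.0809 each). These were -1.09 and 0.56 without replicate 6 (0.131 each), and -0.79 and 0.42 without both mice (0.374 each). In the remaining comparisons the lowest p values were those of Ccne2 (0.46) and Topbp1 (-0.19) for stathmin knockout against wild type, Dtl (-0.35) and Orc3 (-0.21) for double knockout against wild type, and Dtl (-0.29) and Topbp1 (0.20) for double against stathmin knockout, all with an adjusted p of 1. In the interaction they were Ccne1 at -0.84 and Mcmbp at 1.38 (adjusted p = 0.264 each), or -0.58 and 0.62 without both mice (0.485 each).

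In all, 10 replication genes had more than 1 probe above the filter, and the probes disagreed in sign in 5 of them for double against p27 knockout. A second, dimmer probe of Mcm3 (A_52_P364776) differed by 1.07 (limma adjusted p = 0.0342 over all probes) where the brighter one (A_51_P324934) differed by 0.20, and a second Gins1 probe (A_51_P337083) by 1.05 (0.0564) where the brighter one differed by -0.12. Without replicates 5 and 6 the second probes differed by 0.36 (0.304) and 0.19 (0.577), and the brighter ones by -0.23 and -0.70. Cdc45 (A_51_P401451), Pcna (A_51_P396351), Rfc3 (A_51_P479434) and Fen1 (A_52_P502684) each had a single probe. Pcna was the brightest of these at a mean log2 brightness of 16.78 and Cdc45 the dimmest at 11.43, and Cdc45 was well above background on 5 of 6 p27 knockout arrays and on all others.

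Markers of other cells moved between mice as well. The median of 10 adipocyte genes ran from 3.39 to 5.41 in wild type, -0.21 to 4.66 in p27 knockout, 4.94 to 6.32 in stathmin knockout and 3.70 to 5.80 in double knockout, and that of 7 B cell genes from 0.66 to 4.59, 0.09 to 3.53, 2.03 to 4.43 and 2.10 to 3.58. The median of 24 G2 and mitosis genes, which mark dividing cells, was 0.83 to 1.57 in wild type, 0.74 to 1.56 in stathmin knockout and 0.94 to 1.41 in double knockout. In p27 knockout it was 1.19 to 1.57 in replicates 1 to 5 and -0.30 in replicate 6. In double against p27 knockout all 14 fibroblast genes were below 0 and 10 fell, with a median difference of -1.31, or -0.74 without replicates 5 and 6. The 10 adipocyte genes were all above 0 and 5 rose, with a median of 1.69, or 1.03 without both mice. The medians of 8 skeletal muscle genes (1 rose), 7 endothelial genes (3 rose), 7 B cell genes (0 rose) and 8 macrophage genes (2 rose) were 1.79, 1.06, 1.38 and 0.78, or 1.66, 0.46, 0.88 and 0.69 without both mice. Those of 16 genes of double-positive thymocytes (1 fell), 9 of thymic epithelium (3 rose) and the 24 of G2 and mitosis (2 rose) were -0.02, 0.30 and 0.15, or -0.74, -0.28 and -0.22. The part of these cell types in the differences of the replication genes was not tested.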

How the data were processed

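Thymus RNA of 24 mice, 4 genotypes of 6, was read on 2-colour Agilent arrays against a fibroblast pool. Per the file headers, spot intensities are mean pixel brightness and background from Feature Extraction 9.1.3.1, and the deposited log10 ratios are that program's dye-normalized Cy5 over Cy3. The authors' deposited table of log2 values followed spot brightness (r with log ratio at most 0.067, column medians 8.62 to 10.6); no source used here states its scale, centring or direction, and it served only as an alternative.

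From the intensities, background was corrected by normexp (offset 50), log2 ratios were loess-normalized within arrays, outlier spots (11 to 314 per array) were left out and spots of a probe averaged, in R 4.3.3 with limma 3.58.1. Outlier spots removed 3 values of the replication genes (Rpa3 in wild type replicates 1 and 6, Rpa2 in stathmin knockout replicate 5). Probes well above background in Cy5 on at least 6 of 24 arrays were kept (35192 of 41174), and the brightest stood for its gene. The accession named 22951 probes through RefSeq and 18223 kept the file's name. Genotype means were compared with lmFit and eBayes over 24790 genes, with Benjamini-Hochberg adjustment and a threshold of 0.05. Each of 6 slides held 1 array of every genotype. A genotype kept the same place on all slides, and effects of place and genotype cannot be told apart. The labels do not state further pooling, p-values measure the spread between these mice, and the number of arrays limits the precision. For each gene 1 estimate of spread over all 24 arrays was used in every comparison. Replicates 5 and 6 of p27 knockout therefore also enter the errors, intervals and p-values of comparisons without p27 knockout. Without those 2 arrays 48 genes passed in double knockout against wild type, where 3 had, and none was a replication gene. For stathmin knockout against wild type, the share at an unadjusted limma p under 0.05 went from 2.75% to 4.93% of all genes.

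The members and lists were chosen with earlier results of these data known. By the rule for named genes, values over the samples (single values or ranges) and tests are given for Pcna, Cdc45, Mcm2 to Mcm7, the 2 genes with the lowest p in each comparison and all past the threshold. From the wider list the 2 with the lowest p in each comparison are named. The alternatives were other background corrections, scalings, filters, probe rules, blocks, covariates, array weights and left-out arrays. Slide block with array weights, brightness with 2 arrays left out, and probe fits without those arrays were chosen after seeing the data. The fit was tested on simulated data of double knockout against wild type over 24032 genes, with 6 false calls.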

Additional observations from a re-analysis of the deposited data

Results flagged for a closer look

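Each gene's 6 values in a genotype, and the median of the 40, were searched for 1 mouse far from the other 5 (Dixon's test at its 95% critical value). This was met in 37 of 164 groups of values, where chance flags about 1 in 20 independent groups. These groups were read on the same 24 arrays and are not independent. Of the 37 flags, 23 were in p27 knockout replicate 6.

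In p27 knockout replicate 6, 23 values lay far below the other 5 mice, the median of the 40 genes at -0.58 among them. The licensing genes were Cdt1 at -0.81, Mcm2 at -1.16, Mcm3 at -0.59, Mcm4 at -0.86, Mcm6 at -1.51 and Mcm7 at -0.63. The firing genes were Cdc7 at -2.18, Mcm10 at -0.57, Gins1 at -2.04 and Gins3 at -0.34. Pcna stood at -0.88, Rfc1 at -1.13, Pola1 at -1.04, Prim1 at -1.82, Prim2 at -1.07, Pold1 at -0.54 and Rpa1 at -1.79. Rrm1 was at -2.03, Rrm2 at -0.89, Tyms at -2.61, Slbp at -0.61 and Uhrf1 at 2.66. In replicate 5 only Rfc3 was flagged, at -1.48. Cdc45 was also low there, at -2.52, but it stood at -2.74 in replicate 6. A search for 1 mouse apart from the other 5 flagged neither.

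In stathmin knockout replicate 3, Mcm2 at 3.60, Mcm3 at 2.80, Mcm4 at 1.83, Rfc1 at 1.94 and Slbp at 3.41 lay far above the other 5 mice and Gins2 at -1.71 far below. In double knockout replicate 1, Orc1 at 1.62, Mcm6 at 1.12, Rfc5 at 0.99, Rpa1 at 1.24 and Chaf1b at 0.43 lay far above. In double knockout replicate 3, Mcm3 at 1.88 and Gins1 at 0.81 lay far below.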

How the results depend on the processing

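Of 228 alternative counts of replication genes past the threshold, 214 were within 1.5 times the count reported, and of 985 alternative values of single genes 878 kept their direction and their side of the threshold. The 228 counts pool all 6 comparisons, and 5 of these had a reported count of 0. The pooled share therefore does not describe double against p27 knockout, the comparison with calls. The counts that moved all concerned p27 knockout. Against wild type the count of 0 became 12 (all lower) in the authors' deposited table. There 17.3% of all genes passed and the median of all genes was -0.55. The count became 6 with array weights (12.4% of all genes) and 8 with slide block and array weights (17.6% of all genes). For double against p27 knockout the count of 4 became 40 (all higher) in the deposited table, where Mcm5 differed by 1.10. There 52% of all genes passed and the median of all genes was 0.68. The count became 17 with array weights (33.8% of all genes) and 17 with slide block and array weights (43.4% of all genes). In these 2 fits Mcm2 differed by -0.51 and -0.48. The count became 0 with brightness as a term, with replicates 5 and 6 of p27 knockout in the fit (0% of all genes) or without them (0.00403%). It became 2 when only those mice were left out (14.4% of all genes). Leaving out 1 mouse at a time gave 1 to 12 in this comparison, and 0 to 0 in each of the other 5. It was 12 without p27 knockout replicate 6 (27.7% of all genes) and 1 (Cdc45) without double knockout replicate 1 (22.4%). It was 2 without p27 knockout replicate 5 (21.5%), double knockout replicate 5 (23%) or double knockout replicate 6 (22.8%). All p27 knockout arrays were dimmer in Cy5 (19.4 to 171 kilo-units) than all double knockout arrays (200 to 320). In Cy3 they were all brighter (163 to 217 against 118 to 158). Effects of brightness and genotype therefore cannot be told apart in this comparison. The cause of these moves was not tested.

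With the replicate number as a block (replicate block) 3 replication genes passed in double against p27 knockout, where 28.3% of all genes did. In each other comparison 0 passed, where at most 0.00807% of all genes did. Rfc3 then had a limma adjusted p of 0.0611. The number is also the slide in wild type, stathmin and double knockout, not in p27 knockout. Correlations of same-numbered mice ran from -0.556 to 0.614, and in no comparison were all 6 above 0.1. With slide as a block 4 replication genes passed in double against p27 knockout, where 32% of all genes did. Across scalings the median of all genes in double against p27 knockout was -0.16 as reported, -0.05 in Agilent's log ratios and -0.01 in Cy5 alone, and the replication genes' median was 0.05, 0.31 and 0.32. The corresponding medians for p27 knockout against wild type were 0.14, 0.08 and 0.02 for all genes and -0.12, -0.35 and -0.41 for the replication genes. With 6 mice a genotype, 2 of them doubtful in p27 knockout, smaller differences may be missed.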
